A study of Mus musculus with 32 samples.

Results

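The natural killer (NK) cell receptors described here are 10 genes, Ncr1, Klrk1, Klrd1, Klrc1, Klre1, Klrb1c, Klra4, Klra7, Klra8 and the transcription factor Eomes. They were taken by gene symbol, and all 10 had a row among the 39676 genes counted in 32 whole mesothelioma tumors. AB1 cells had been inoculated into female BALB/c mice and AE17 cells into female C57BL/6 mice, either into the pleural space (intrapleural, IPL) or under the skin of the flank (subcutaneous, SC). Each mouse received 500000 AB1 or 1000000 AE17 cells at 8 to 10 weeks of age, no mouse was treated, and tumors were collected on day 10, with 8 mice for each model and site. Lungs and surrounding tissue were removed from the tumors before RNA extraction. Each model is 1 cell line in 1 strain, so cell line, host strain and number of cells inoculated cannot be told apart.

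NK cells are lymphocytes that kill tumor and virus-infected cells without antigen-specific receptors, and they weigh signals from activating receptors against signals from inhibitory ones. NKp46, encoded by Ncr1, is an activating receptor carried by nearly all mouse NK cells and few other cells. Most of the other receptors are C-type lectin-like proteins encoded side by side in the NK gene complex: NKG2D (Klrk1) detects stress-induced ligands, CD94 (Klrd1) pairs with NKG2A (Klrc1) to detect the class I molecule Qa-1, and the Ly49 receptors (Klra genes) detect classical class I molecules. Activated CD8 T cells also carry NKG2D, CD94, NKG2A and Eomes. The Klra and Klrb1 genes differ between inbred strains in number and in sequence, and BALB/c mice lack the activating receptors Ly49D (Klra4) and Ly49H (Klra8) of C57BL/6.

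Depth was similar across tumors, with 15432258 to 20649645 counts on genes in each, and a detection limit of 3 counts lay at 0.140 to 0.189 CPM (counts scaled to a library of 1000000 with the TMM factors of edgeR). This limit covers counting error only. The 7 mesothelioma markers with a row summed to between 156 and 364 CPM in every tumor. Leukocyte content differed between tumors: the summed level of 5 common leukocyte genes (Ptprc, Cd53, Laptm5, Coro1a and Cd52) was 424 to 824 CPM in AB1 IPL, 806 to 1333 CPM in AB1 SC, 842 to 1308 CPM in AE17 IPL and 572 to 1391 CPM in AE17 SC tumors. AE17 SC replicate 8 had the lowest sum of its group, 572 CPM, and the lowest level of its group in 9 of the 10 receptor genes, though none of these values was an outlier by Dixon's test. Sequencing lane overlapped with the groups. All 8 AB1 IPL libraries and 2 AB1 SC libraries were on lane 3, 6 AB1 SC and 5 AE17 IPL libraries were on lane 2, and 3 AE17 IPL and all 8 AE17 SC libraries were on lane 1. Because whole tumors were sequenced, the values do not show which cells carried a gene. Fewer cells carrying it and less of its RNA per cell cannot be told apart in any value below.

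The Klra genes are near copies of each other, which bears on how 50 bp reads can be assigned to them. Over their coding sequences (GENCODE M21 transcripts), Klra4 and Klra7 were 84.3% identical, Klra4 and Klra8 78.6% and Klra7 and Klra8 77.9%. The first 60 coding bases are shown for these 3 genes, 5′ to 3′, with capitals at the 14 positions where at least 1 of them differs.
Klra4: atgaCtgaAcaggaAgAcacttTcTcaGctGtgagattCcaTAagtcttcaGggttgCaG
Klra7: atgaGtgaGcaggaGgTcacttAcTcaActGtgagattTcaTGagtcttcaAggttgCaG
Klra8: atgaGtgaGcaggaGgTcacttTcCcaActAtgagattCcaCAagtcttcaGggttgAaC
Of all 50-base windows in the exons of a gene, 4.68% in Klra4, 12.3% in Klra7 and 33.1% in Klra8 also occur in another gene, most often Klra1, Klra13-ps and Klra14-ps respectively. The share was 38.6% for Klrc1, mostly with Klrc2, 17% for Klrb1c, mostly with the overlapping model Gm44511, and 2.10% for Eomes. Ncr1, Klrk1, Klrd1 and Klre1 shared no such window. How the counting treated reads with more than 1 match is not given in the sources used here, so the counts of Klrc1, Klra8, Klrb1c and Klra7 are the less certain ones.

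Promoters were compared because most receptors varied together. RefSeq promoters on GRCm38.p6, from 250 bases before to 50 after a start, were at hand for 9 of the 10 genes. They were searched on both strands for GGTGTGA, bound by T-box factors such as Eomes, TGTGGTT, bound by Runx factors, and CAGGAAG, bound by ETS factors. The T-box and ETS letters, which are in 3.98% and 13.3% of all 32851 promoters, were found in no promoter of the 9 genes. Both Ncr1 promoters, the Klrk1 promoter and 1 of the 2 Klre1 promoters held the Runx letters, which are in 5.27% of all. The upstream Ncr1 promoter (chr7:4337465-4337764, plus strand) and the Klrk1 promoter (chr6:129623815-129624114, minus strand) are shown 5′ to 3′ with that match in capitals.
Ncr1: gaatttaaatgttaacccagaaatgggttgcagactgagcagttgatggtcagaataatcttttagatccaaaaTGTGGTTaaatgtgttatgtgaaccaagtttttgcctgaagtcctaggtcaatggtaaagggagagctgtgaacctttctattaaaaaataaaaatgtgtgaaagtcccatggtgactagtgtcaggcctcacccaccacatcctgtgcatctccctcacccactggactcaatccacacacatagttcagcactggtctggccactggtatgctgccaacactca
Klrk1: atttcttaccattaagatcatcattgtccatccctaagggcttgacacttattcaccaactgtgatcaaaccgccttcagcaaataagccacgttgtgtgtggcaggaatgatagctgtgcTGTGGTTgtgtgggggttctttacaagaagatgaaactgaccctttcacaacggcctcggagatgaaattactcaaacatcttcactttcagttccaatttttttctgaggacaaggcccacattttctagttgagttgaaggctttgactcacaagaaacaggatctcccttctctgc
A match of 7 letters is a description of the sequence and not a bound site.

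Levels are given first across the 4 groups, for each gene as mean CPM ± SD of 8 mice. Ncr1 (chromosome 7, 4337724 to 4345164, 6 exons) was 32.5 ± 9.38 in AB1 SC, 8.29 ± 3.14 in AE17 SC, 7.35 ± 1.98 in AB1 IPL and 3.05 ± 1.18 in AE17 IPL tumors. AB1 SC tumors did not overlap with the next group in this order, whereas the ranges of all other neighbors overlapped. Klrk1 (chromosome 6, 129610323 to 129623864) was 49.2 ± 14.6 in AB1 SC, 29.8 ± 12.7 in AE17 SC, 24.4 ± 5.19 in AE17 IPL and 15.5 ± 6.43 in AB1 IPL tumors, and each neighboring pair overlapped. Klrd1 (chromosome 6, 129591782 to 129598775) was 25.9 ± 7.17 in AB1 SC, 11.6 ± 5.09 in AE17 SC, 11.6 ± 1.84 in AE17 IPL and 5.64 ± 2.01 in AB1 IPL tumors, and AE17 IPL and AB1 IPL tumors did not overlap. Thus AB1 SC tumors had the highest mean for each of these 3 genes, while the lowest mean was in AE17 IPL tumors for Ncr1 and in AB1 IPL tumors for Klrk1 and Klrd1. Divided by exon length, the mean level of Ncr1 in AB1 SC tumors was 21.1 CPM per kb, close to 20.2 for Klrd1 and above 12.04 for Klrc1, 6.85 for Klrk1, 3.78 for Eomes, 3.50 for Klrb1c and 2.62 for Klre1. In AE17 SC tumors the order by this measure began instead with Klra4 at 23.2 CPM per kb, followed by Klrd1 at 9.08 and Ncr1 at 5.39.

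**Figure D1:**
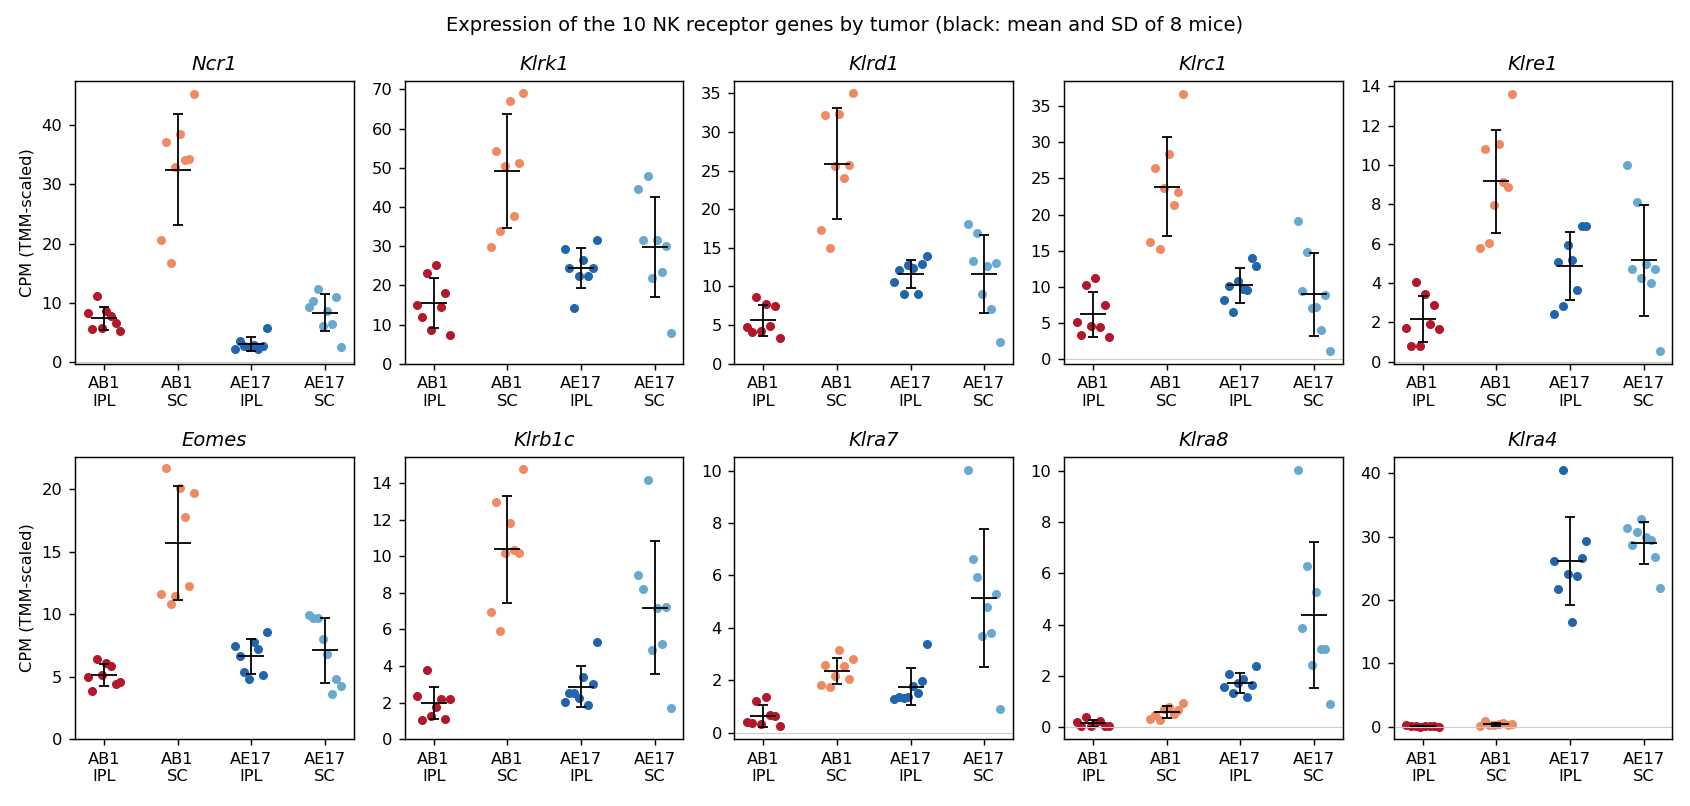
CPM of each of the 10 NK receptor genes in every tumor, with 1 panel per gene, linear axes from about 0 and black lines for the mean and SD of 8 mice. The 8 AB1 IPL tumors lie below all 8 AB1 SC tumors in the panels of Ncr1, Klrk1, Klrd1, Klrc1, Klre1, Eomes, Klrb1c and Klra7, and Klra4 lies near 0 in all AB1 tumors.

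IPL and SC AB1 tumors were compared to see whether the receptors differed between a pleural and a subcutaneous site. All 8 receptor genes that passed the filter on low counts were lower at the IPL site with an adjusted p below 0.05 (edgeR quasi-likelihood test, Benjamini-Hochberg over 14645 genes), while 10.7% of all genes tested were called lower, 12.3% higher and 23% in either direction. Klra4 and Klra8 did not pass the filter. The median log2 fold change of the 8 genes was -2.05, against 0.00 for all genes tested. In each of the 8 genes every IPL tumor was below every SC tumor.

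Among the activating receptors, Ncr1 ranged from 5.28 to 11.1 CPM with a median of 7.20 in AB1 IPL tumors, and from 16.7 to 45.3 CPM with a median of 34.2 in SC tumors. It was 4.51-fold lower in IPL tumors (log2 fold change -2.17, SE 0.21, adjusted p = 7.52e-06). Klrk1 ranged from 7.29 to 25.2 CPM (median 14.6) in IPL and from 29.8 to 69.0 CPM (median 50.8) in SC tumors, and was 3.24-fold lower (log2 fold change -1.70, SE 0.25, adjusted p = 0.000186). NKG2D differed the least in size among the receptors, with Eomes alone below it. Klrb1c (chromosome 6, 128778485 to 128789215), which encodes the antigen NK1.1 of C57BL/6 and related strains, ranged from 1.08 to 3.76 CPM (median 2.01) in IPL and from 5.92 to 14.7 CPM (median 10.2) in SC tumors. Its log2 fold change was -2.41 (SE 0.26, adjusted p = 1.38e-05), the largest of the 8 in size.

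Of the CD94 family, Klrd1 ranged from 3.27 to 8.70 CPM (median 4.83) in AB1 IPL tumors and from 14.9 to 35.0 CPM (median 25.6) in SC tumors, with a log2 fold change of -2.22 (SE 0.23, adjusted p = 9.58e-06). Klrc1 (chromosome 6, 129666015 to 129678973), its inhibitory partner, ranged from 2.96 to 11.1 CPM (median 4.78) in IPL and from 15.2 to 36.7 CPM (median 23.4) in SC tumors, with a log2 fold change of -1.99 (SE 0.28, adjusted p = 0.000114). Klre1 (chromosome 6, 129577905 to 129585827), a lectin-like receptor of NK cells that pairs with the Klri proteins, was 0.808 to 4.07 CPM (median 1.83) in IPL and 5.80 to 13.6 CPM (median 9.03) in SC tumors. Its log2 fold change was -2.10 (SE 0.31, adjusted p = 0.000159). Both chains of the CD94/NKG2A pair and Klre1 thus differed 3.96- to 4.67-fold between sites.

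Klra7 (chromosome 6, 130218605 to 130233322), which encodes the inhibitory receptor Ly49G, was low in AB1 tumors, with 5 to 25 counts in IPL and 29 to 55 counts in SC tumors. Its log2 fold change was -1.86 (SE 0.30, adjusted p = 0.000288). Eomes (chromosome 9, 118478212 to 118486132), a T-box factor required for mature NK cells, was 3.88 to 6.46 CPM (median 5.08) in IPL and 10.8 to 21.7 CPM (median 15.04) in SC tumors, with a log2 fold change of -1.63 (SE 0.17, adjusted p = 1.32e-05). Klra4 had 0 to 4 counts in AB1 IPL tumors and 2 to 17 counts in SC tumors, and Klra8 had 1 to 8 and 5 to 15 counts. Both lay at or near the detection limit in IPL tumors and were low in SC tumors, with medians of 5.5 and 10 counts. Within lane 3 alone, with 8 IPL and 2 SC tumors, all 8 tested genes stayed lower in IPL tumors (log2 fold change -2.38 to -1.50) and 4 remained past the threshold, namely Ncr1, Klrd1, Klrb1c and Eomes. With lane as a covariate 8 were called. The shares of all genes called in these fits are not given here.

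Markers of other cells moved with this comparison. All 10 T cell genes with a row, among them Cd3e (log2 fold change -1.06, adjusted p = 0.0128) and Cd8a (-1.14, adjusted p = 0.0136), were lower in AB1 IPL tumors, and their summed level was 30.5 to 135 CPM in IPL and 151 to 296 CPM in SC tumors. Of the 5 leukocyte genes, 4 were lower, Ptprc (CD45) by 1.18 on the log2 scale (log2 fold change -1.18, adjusted p = 0.00183). Of 6 macrophage genes, 2 were lower, Cd68 (-0.33, adjusted p = 0.0401) and C1qa (-0.44, adjusted p = 0.0418). Of 8 skeletal muscle genes, 7 were higher in IPL tumors, and their sum was 110 to 4295 CPM in IPL and 53.8 to 450 CPM in SC tumors. Of 5 B cell genes tested, 3 were higher, Cd79a (0.84), Cd79b (1.21) and Ms4a1 (2.19, named after its values were seen), and Cd22 was lower (-1.12). Of 4 adipocyte genes, Adipoq (3.26) and Fabp4 (1.45) were higher, and of 2 cardiac muscle genes Tnnt2 was higher (3.11) and Tnni3 lower (-0.88). ILC1 cells, a tissue-resident relative of NK cells, carry NKp46 too, and 2 of 4 ILC1 genes tested were lower, Cd200r1 (-1.59) and Cxcr6 (-1.42). The part of these cells in the lower receptor levels was not tested. All 8 receptor genes were still called with tissue marker scores as covariates, which stand for lung epithelium, fat cells and both heart and skeletal muscle and include no T cell or leukocyte gene.

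In the AE17 model, 4 of the 10 receptor genes were lower in IPL tumors, namely Ncr1, Klrb1c, Klra7 and Klra8, and 6 were not called (edgeR, 14668 genes tested). Of all genes tested, 3.13% were called lower, 2.6% higher and 5.73% in either direction. The median log2 fold change of the 10 genes was -0.21, against 0.00 for all genes. Ncr1 ranged from 2.11 to 5.73 CPM (median 2.68) in AE17 IPL tumors and from 2.56 to 12.3 CPM (median 8.89) in SC tumors. All 8 IPL tumors were below the SC median and 3 were below every SC tumor. The overlap came from SC replicate 8 alone, with 42 counts of Ncr1, as the other 7 SC tumors, at 6.11 CPM or more, were above every IPL tumor. The log2 fold change of Ncr1 was -1.43 (SE 0.28, adjusted p = 0.0129), a 2.70-fold difference.

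The other genes called in AE17 were Klrb1c, Klra7 and Klra8. Klrb1c ranged from 1.88 to 5.34 CPM (median 2.52) in IPL and from 1.71 to 14.2 CPM (median 7.21) in SC tumors, with a log2 fold change of -1.31 (SE 0.32, adjusted p = 0.0288). Klra7 ranged from 1.28 to 3.39 CPM (median 1.44) in IPL and from 0.914 to 10.0 CPM (median 5.04) in SC tumors, with a log2 fold change of -1.53 (SE 0.34, adjusted p = 0.0207). Klra8 (chromosome 6, 130115226 to 130129898), whose product Ly49H recognizes a protein of mouse cytomegalovirus, ranged from 1.17 to 2.39 CPM (median 1.69) in IPL and from 0.914 to 10.0 CPM (median 3.47) in SC tumors, with a log2 fold change of -1.33 (SE 0.35, adjusted p = 0.035). In each of these 3 genes all 8 IPL tumors were below the SC median, none was below every SC tumor, and SC replicate 8 was the lowest of its group.

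The 4 calls depended on the fit. None remained with sequencing lane as a covariate, with tissue marker scores as covariates or within lane 1 alone (3 IPL and 8 SC tumors), although the differences kept their sign, and that of Ncr1 was -1.22, -1.23 and -1.23 in these 3 fits. The share of all genes called in these fits is not given here, so a loss particular to the receptors cannot be read from the counts. The calls of Klrb1c and Klra8 were lost when any 1 of AE17 IPL replicates 1, 2, 3, 4, 6 and 7 or SC replicates 2, 5 and 7 was left out, which left 2 genes called. Ncr1 and Klra7 were called whichever single tumor was left out, with adjusted p up to 0.0313 and 0.0452. Without SC replicate 8, an exclusion chosen after seeing the data, 4 genes were called.

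The CD94 and NKG2 genes were not called in AE17. Klrd1 ranged from 8.997 to 13.9 CPM (median 12.3) in IPL and from 2.80 to 18.1 CPM (median 12.9) in SC tumors, with a log2 fold change of 0.00 (SE 0.26, adjusted p = 0.999). Klrk1 ranged from 14.3 to 31.4 CPM (median 24.4) in IPL and from 7.92 to 47.8 CPM (median 30.8) in SC tumors, with a log2 fold change of -0.28 (SE 0.26, adjusted p = 0.53). Klrc1 ranged from 6.49 to 14.03 CPM (median 9.85) in IPL and from 1.10 to 19.1 CPM (median 8.04) in SC tumors, with a log2 fold change of 0.20 (SE 0.37, adjusted p = 0.779). For these genes the IPL tumors lay inside the wider range of the SC tumors. Klre1 and Eomes likewise had log2 fold changes of -0.08 (SE 0.37, adjusted p = 0.916) and -0.10 (SE 0.22, adjusted p = 0.818). Klra4 (chromosome 6, 130043731 to 130067271), which encodes Ly49D, had a log2 fold change of -0.14 (SE 0.14, adjusted p = 0.56).

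T cell genes did not follow Ncr1 in this model. Of 10 T cell genes none was called, their median log2 fold change was 0.59, and their summed level was 106 to 262 CPM in IPL and 25.8 to 280 CPM in SC tumors. Cd8a was 27.9 to 54.0 CPM (median 46.6) in AE17 IPL and 0.914 to 45.0 CPM (median 9.71) in SC tumors. For Cd8a, 5 of 8 IPL tumors were above every SC tumor, with a log2 fold change of 1.60 and an adjusted p of 0.0732. The part of T cells in the AE17 levels of Klrk1, Klrd1, Klrc1 and Eomes was not tested. Of 5 ILC1 genes 1 was called, Cd200r1 (log2 fold change -0.61, adjusted p = 0.0349). The summed leukocyte genes overlapped between AE17 sites and none of the 5 was called, with a log2 fold change of 0.01 for Ptprc. Of 4 B cell genes tested, 2 were higher in AE17 IPL tumors, Cd79a (4.07, adjusted p = 0.0338) and Pax5 (1.41, adjusted p = 0.0187), and the sum of 7 B cell genes was 61.5 to 302 CPM in IPL and 14.8 to 65 CPM in SC tumors. Of 2 cardiac muscle genes, Tnnt2 was higher (1.49, adjusted p = 0.0195). The part of these cells was not tested either.

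**Figure D2:**
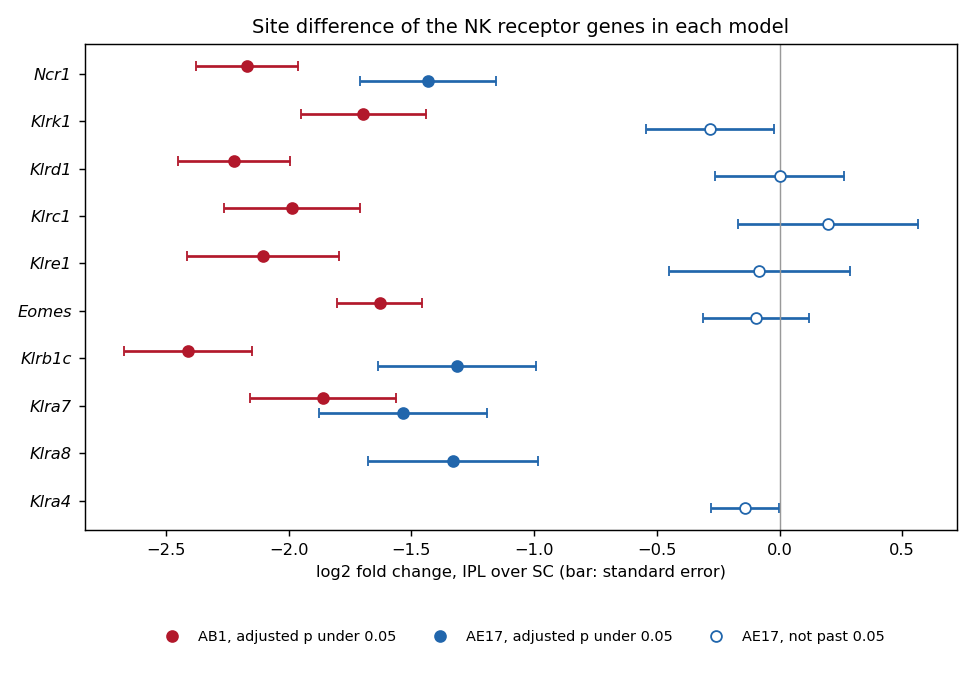
Log2 fold change of IPL over SC tumors for each NK receptor gene, with red points for AB1 and blue points for AE17, bars for the standard error and open points for genes not past an adjusted p of 0.05. All 8 AB1 points lie between -2.41 and -1.63, whereas 6 AE17 points lie between -0.28 and 0.20 and the other 4 between -1.53 and -1.31; Klra4 and Klra8 were not tested in AB1.

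Whether the models differed in their site effect was then tested directly, as the AB1 minus the AE17 log2 fold change in 1 fit of all 32 tumors. Of the 8 receptor genes that could be tested in both models, 5 passed the threshold, each time with the more negative effect in AB1, while 8.62% of 15681 genes were called in that direction, 11.9% in the other and 20.5% in either. The difference was -2.21 for Klrd1 (SE 0.36, adjusted p = 0.000135), -2.16 for Klrc1 (SE 0.48, adjusted p = 0.00216), -2.00 for Klre1 (SE 0.50, adjusted p = 0.00516), -1.52 for Eomes (SE 0.28, adjusted p = 0.000525) and -1.40 for Klrk1 (SE 0.38, adjusted p = 0.009). Klra4 and Klra8 entered this fit through their AE17 counts alone, and the value of Klra4 (-2.15, adjusted p = 0.00213) sets 11 against 53 summed counts in AB1, so neither is counted here. Of the genes that were lower in AE17 IPL tumors, the 3 counted did not pass: -0.72 for Ncr1 (SE 0.35, adjusted p = 0.146), -1.08 for Klrb1c (SE 0.42, adjusted p = 0.0666) and -0.31 for Klra7 (SE 0.46, adjusted p = 0.685). These p values do not show that the effects were equal. With sequencing lane or tissue scores as covariates, Klrd1 and Eomes were still called and Klrk1, Klrc1 and Klre1 were not. The differences of these 3 genes kept much of their size, at -1.26, -2.24 and -2.11 with lane and at -1.12, -1.86 and -1.83 with tissue scores (adjusted p between 0.0517 and 0.234). Klrb1c was called when AB1 IPL replicate 3, AB1 SC replicate 3 or AE17 SC replicate 3 was left out, with a difference of up to -1.30. Other cell markers moved with this contrast in the same direction, with 9 of 10 T cell genes (median -1.99), 4 of 5 leukocyte genes (-0.73), 3 of 6 macrophage genes (-0.43), 3 of 5 ILC1 genes (-0.96) and 2 of 6 B cell genes (-2.21) lower, and 7 of 8 skeletal muscle genes were higher (4.06), beside a median of -1.46 over the 10 receptor genes. Their part in the receptor values was not tested.

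Ratios of 2 genes within a tumor do not depend on library scaling, so Ncr1 was set against a leukocyte gene and a T cell gene, with a pseudocount of 0.5 counts and exact permutation tests (two-sided) of all splits of 8 against 8 tumors. In AE17 tumors there were 0.793 to 1.57 Ncr1 reads (median 1.13) per 100 Ptprc reads at the IPL site and 2.23 to 4.32 (median 3.03) at the SC site. Every IPL tumor was below every SC tumor, SC replicate 8 included. The difference was -1.42 on the log2 scale (exact permutation p = 0.000155, the smallest these splits can give; adjusted over 4 ratio tests 0.000311). Within lane 1 it was -1.28, with an exact permutation p of 0.00606, which is the smallest possible for 3 against 8 tumors. Per 100 Cd3e reads, there were 15.7 to 39.4 Ncr1 reads (median 24.9) in AE17 IPL and 56.9 to 282 (median 142) in SC tumors, again without overlap. The log2 difference was -2.46 (exact permutation p = 0.000155, adjusted 0.000311).

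In AB1 tumors there were 4.68 to 15.3 Ncr1 reads (median 5.50) per 100 Ptprc reads at the IPL site and 8.07 to 14.3 (median 11.9) at the SC site. Here 7 of 8 IPL tumors were below every SC tumor and IPL replicate 4 was above them all. That tumor had 678 Ptprc counts, the fewest of the series, but a leukocyte sum of 690 CPM within the range of its group. The difference was -0.87 (exact permutation p = 0.00311, adjusted 0.00414) and -1.06 without that tumor. Per 100 Cd3e reads the ranges were 52.5 to 345 in IPL and 172 to 387 in SC tumors, and the log2 difference was -0.92 (exact permutation p = 0.012, adjusted 0.012). Within lane 3 neither AB1 ratio passed, with exact permutation p of 0.0667 for Ptprc and 0.289 for Cd3e. Whether the ratios differed more in AE17 than in AB1 was not tested.

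Ratios of Ncr1 to Klrd1, Klrk1 and Cd8a were chosen after seeing how these genes differed between sites, so they are described without a test, and they were not computed within lanes. In AE17 there were 19.9 to 41.2 Ncr1 reads (median 23.2) per 100 Klrd1 reads in IPL and 51.0 to 91.3 (median 74.7) in SC tumors, and 7.34 to 18.5 per 100 Klrk1 reads in IPL against 20.7 to 36.4 in SC tumors. Neither ratio overlapped between sites, with log2 differences of -1.54 and -1.22. In AB1 there were 88.1 to 175 Ncr1 reads (median 135) per 100 Klrd1 reads in IPL and 112 to 142 (median 124) in SC tumors, and the log2 difference was 0.10. For Ncr1 per Klrk1 the AB1 difference was -0.39, with overlap. Set against Cd8a, the difference was -3.69 in AE17, without overlap, and -0.81 in AB1, with overlap.

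**Figure D3:**
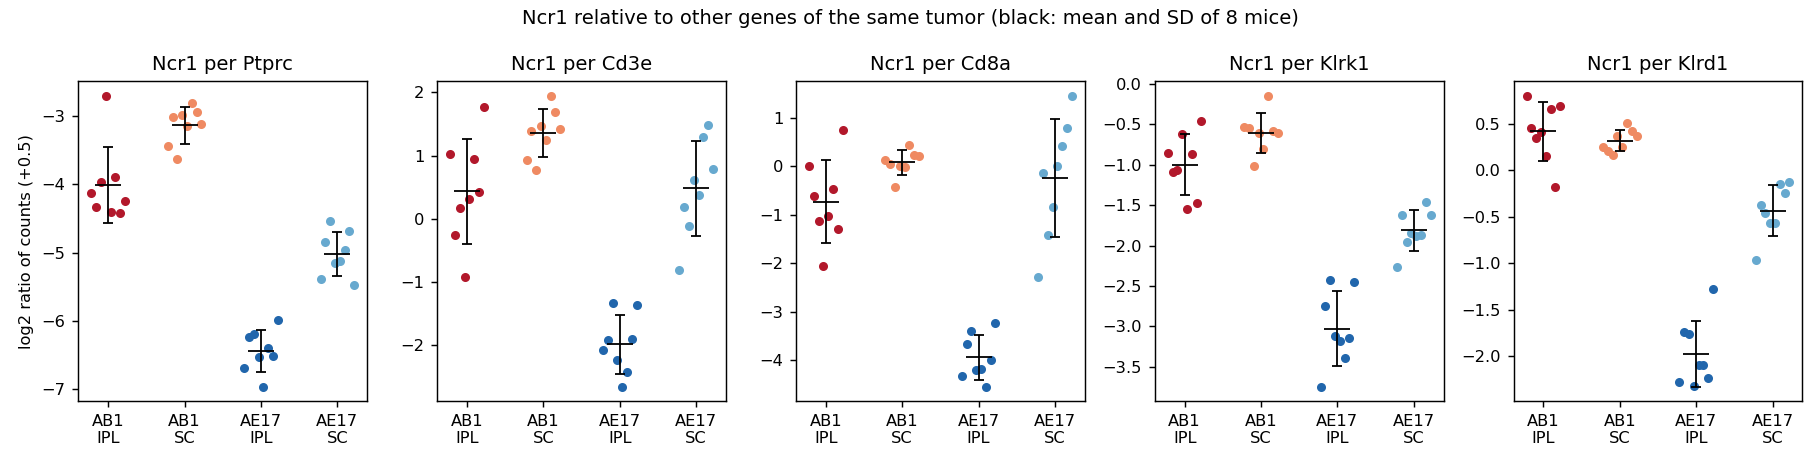
Log2 ratio of Ncr1 counts to the counts of Ptprc, Cd3e, Cd8a, Klrk1 and Klrd1 in the same tumor (0.5 added to each count), with black lines for the mean and SD of 8 mice. In all 5 panels the 8 AE17 IPL tumors lie below the 8 AE17 SC tumors, while the AB1 groups overlap in each panel.

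AB1 and AE17 tumors were then compared at the same site, where no comparison within a lane can be made because no lane holds both models at 1 site. Klra4 and Klra8 passed the filter through their AE17 counts and are described apart. Of the other 8 receptor genes, 6 were higher and 1 was lower in AB1 among SC tumors, and 1 was higher and 4 were lower among IPL tumors. Of all genes, 63.4% were called among IPL tumors, so the receptor count there is near the share of all genes. It is no result about the receptors. Among the same IPL tumors, 5 of 5 leukocyte genes (median -0.69), 9 of 10 T cell genes (-1.08), 4 of 6 macrophage genes (-0.47), 3 of 5 ILC1 genes (-0.57) and 2 of 6 B cell genes (-1.29) were lower in AB1 and 7 of 8 skeletal muscle genes were higher (2.82). Among SC tumors 0 of 5 leukocyte genes were called and 4 of 10 T cell genes were higher (0.87). The part of these cells was not tested. Of all genes, 58.3% were called in SC tumors (28.6% higher and 29.7% lower in AB1) and 63.4% in IPL tumors (31.6% higher and 31.8% lower). Ncr1 was higher in AB1 at both sites, by 1.96 on the log2 scale in SC tumors (SE 0.25, adjusted p = 4.13e-08), without overlap, and by 1.23 in IPL tumors (SE 0.25, adjusted p = 9.35e-05), with overlap. Klrd1 was higher in AB1 among SC tumors (1.14, adjusted p = 0.000251) and lower in AB1 among IPL tumors (-1.07, adjusted p = 0.000572), and Klrk1 had the same pair of signs (0.71, adjusted p = 0.022, and -0.69, adjusted p = 0.0263). The Klrk1 calls were lost without AB1 SC replicate 5 or 8 in SC tumors (adjusted p up to 0.0514) and without AB1 IPL replicate 4 or 8 or AE17 IPL replicate 8 in IPL tumors (up to 0.0587). Klra7 was lower in AB1 at both sites (-1.13, adjusted p = 0.00276, and -1.44, adjusted p = 0.000627), the opposite direction to Ncr1. With lane as a covariate, fitted over all 32 tumors, 4 of these 8 genes were called in SC and 1 in IPL tumors. The share of all genes called in that fit is not given here. Ncr1 was called at both sites (2.38, adjusted p = 0.000151, and 1.62, adjusted p = 0.0154). Klra7 was then at -0.40 (adjusted p = 0.641) and -0.99 (adjusted p = 0.252), Klrk1 at 0.95 (adjusted p = 0.137) and -0.31 (adjusted p = 0.705), Klre1 at 1.31 (adjusted p = 0.114) and -0.80 (adjusted p = 0.408), and Klrd1 at 1.25 (adjusted p = 0.0378) and -0.93 (adjusted p = 0.162). With tissue marker scores as covariates, the calls of these 8 genes in SC tumors did not change. In IPL tumors Ncr1, Klrd1 and Klra7 stayed called, while Klrk1 (-0.42, adjusted p = 0.317) and Klre1 (-0.98, adjusted p = 0.0681) did not. With a block for replicate number, Klre1 lost its call in SC tumors (0.85, adjusted p = 0.0654) and Klrc1 gained one in IPL tumors (-0.85, adjusted p = 0.0471).

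Klra4 and Klra8 differed most between the AB1 and AE17 models. Klra4 had 11 counts in all over the 8 AB1 IPL tumors and 53 over the 8 AB1 SC tumors, against 3564 and 3881 in the AE17 groups, and 7 of 8 AB1 IPL tumors had 3 counts or fewer. No AB1 tumor reached 17 counts except SC replicate 2, and no AE17 tumor had fewer than 276. Klra8 had 23 and 81 counts in AB1 IPL and SC tumors and 236 and 589 in AE17 IPL and SC tumors, and its ranges did not overlap between models among IPL tumors. The AB1 reads come from BALB/c mice but were set against the C57BL/6-based mouse genome. How much of the difference in Klra4, Klra7, Klra8 and Klrb1c comes from gene content, sequence mismatch, reads of related genes or expression was not tested.

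Klra4 in AE17 tumors was 16.6 to 40.6 CPM (median 25.1) in IPL and 21.9 to 32.7 CPM (median 29.7) in SC tumors. Its coefficient of variation among AE17 SC tumors was 11.6%, against 37.9% for Ncr1, 51.4% for Klra7 and 64.7% for Klra8. Among AE17 IPL tumors it was 26.6%, against 38.7% for Ncr1, 40.3% for Klra7 and 22.6% for Klra8. In AE17 SC replicate 8, where Ncr1, Klra7 and Klra8 were at 2.56, 0.914 and 0.914 CPM, Klra4 was at 21.9 CPM. There were 511 to 1542 Klra4 reads (median 960) per 100 Ncr1 reads in IPL and 245 to 857 (median 345) in SC tumors, and the log2 difference was 1.20, a ratio chosen after seeing the data and given without a test. The narrower spread of Klra4 than of the other Ly49 genes was thus seen among SC tumors and did not hold against Klra8 among IPL tumors. Which cells carried it was not tested.

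**Figure D4:**
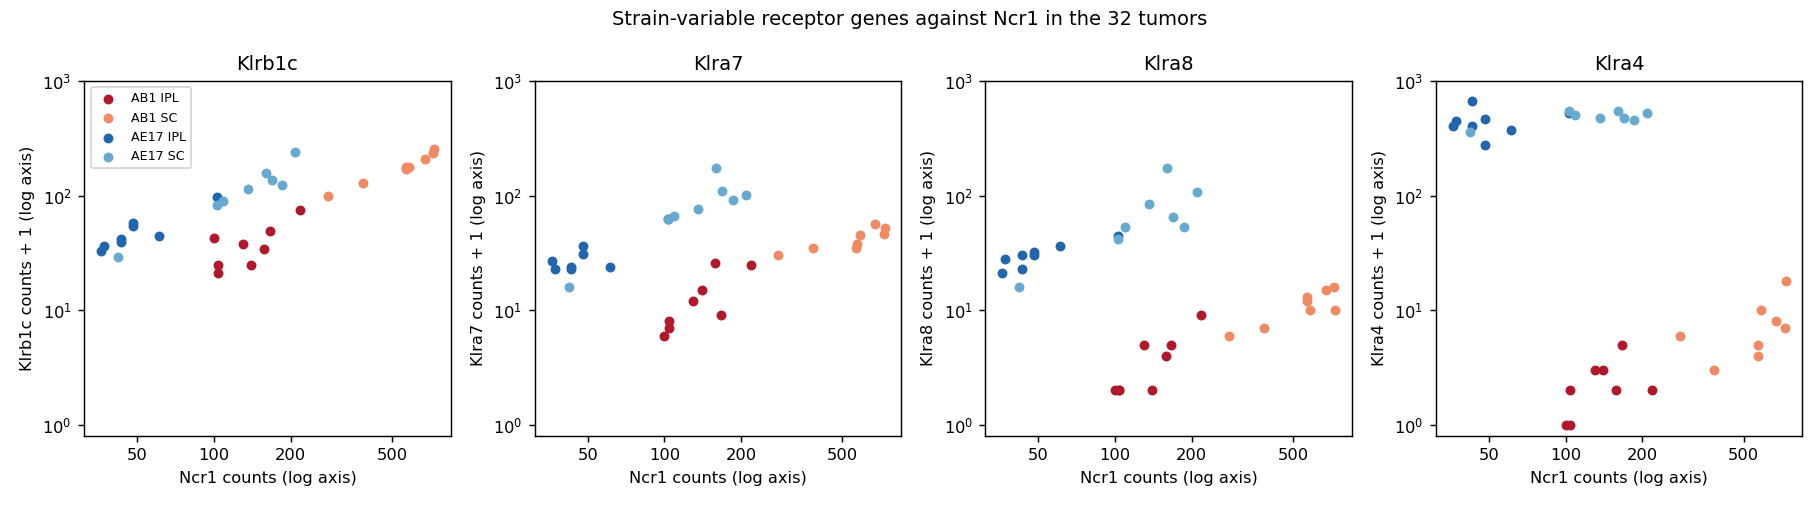
Counts of Klrb1c, Klra7, Klra8 and Klra4 (1 added) against Ncr1 counts in the 32 tumors, both on log axes, with colors for the 4 groups. The Klrb1c, Klra7 and Klra8 points rise with Ncr1 within each model at different heights, whereas Klra4 stays between 276 and 663 counts in all AE17 tumors and at 17 or fewer in all AB1 tumors.

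The tumors were also compared after removal of the 4 group means, over 15676 genes and 32 tumors, to describe which genes varied with Ncr1 from mouse to mouse. Leukocyte content varied between the same tumors and can move many genes together, so these values are descriptions. Pearson's r with Ncr1 was 0.90 for Klrb1c, 0.87 for Klrd1, 0.82 for Klra8 and Klra7, 0.81 for Klrk1 and Klre1, 0.80 for Klrc1 and 0.60 for Eomes. It was 0.35 for Klra4, which ranked 2247th. The 5 other genes most like Ncr1 were Txk (0.87), a kinase of the Tec family in T and NK cells, Klri2 (0.86), Atp8b4 (0.84), Klrc3 (0.84) and Trdc (0.83), the constant region of the T cell receptor delta chain. In AB1 IPL tumors these 5 genes were lower by 1.24 to 2.34 on the log2 scale (log2 fold change -2.34 to -1.24, adjusted p up to 0.000238), and in AE17 Klri2 alone passed (-1.13, adjusted p = 0.0388).

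Other genes of the NK gene complex and of NK signaling were read from lists. Beside the list counts here and below, 10.7% of all genes tested were called lower and 12.3% higher in AB1 IPL tumors. In AE17 IPL tumors 3.13% were called lower and 2.6% higher, so a list with none called there is near the share of all genes. Of 14 further NK gene complex receptors tested in AB1, 11 were lower in IPL tumors and none was higher, with a median log2 fold change of -1.96, and in AE17 5 of 16 were lower. The 5 were Klrb1b, Klrb1f, Klra9, Klrb1a and Klri2, with log2 fold changes of -1.01, -1.17, -1.35, -0.995 and -1.13 and adjusted p between 0.0183 and 0.0395. All 5 were also lower in AB1 IPL tumors, with log2 fold changes of -2.31 to -2.22 for the first 4 and -1.92 for Klri2 (adjusted p = 0.000238). Klrb1b encodes an inhibitory NKR-P1 receptor, and Klra9 another Ly49 receptor that varies by strain.

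All 11 other NK surface receptors tested were lower in AB1 IPL tumors (10.7% of all genes were) and none of 11 was called in AE17 (5.73% of all genes were). Examples in AB1 were Il18r1, the receptor for interleukin-18 (log2 fold change -2.03, adjusted p = 5.07e-05), Cd244 (2B4; -1.57, adjusted p = 3.42e-05), Cd27 (-1.47, adjusted p = 9.3e-05) and Slamf6 (-1.44, adjusted p = 3.35e-05), which T cells carry as well. Of 13 adapters and proximal signaling genes, 11 were lower in AB1 IPL tumors and none was called in AE17. The adapter of NKG2D, Hcst (DAP10), had a log2 fold change of -1.16 (adjusted p = 0.00118) and Tyrobp (DAP12), which serves the activating Ly49 receptors and is also made by myeloid cells, -0.56 (adjusted p = 0.00399). Cd247, Zap70 and Sh2d1a, used in T and NK cells alike, had log2 fold changes of -1.44, -1.32 and -1.74 (adjusted p = 0.000311, 0.000793 and 0.000188).

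Of 8 NK transcription factors tested in AB1, 6 were lower in IPL tumors. Tbx21 (T-bet), the partner of Eomes, had a log2 fold change of -1.32 (adjusted p = 0.00152), Ikzf3 -1.18 (adjusted p = 0.000819) and Gata3 -0.50 (adjusted p = 0.00584). In AE17 none of 9 was lower and Tox was higher (1.61, adjusted p = 0.0207), while Tbx21 had 0.16 (adjusted p = 0.791). Of 6 cytotoxic effector genes tested in AB1, 4 were lower, namely Fasl (-1.96, adjusted p = 1.32e-05), Nkg7 (-1.55, adjusted p = 0.000601), Gzmk (-1.48, adjusted p = 0.00079) and Tnfsf10, which encodes TRAIL (-0.97, adjusted p = 0.0039). None of 6 was called in AE17, where 5.73% of all genes were called. Prf1 and Gzmb are not analysed here.

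Ligands were read in the same way. Of all genes, 10.7% were called lower and 12.3% higher in AB1 IPL tumors, and 3.13% lower and 2.6% higher in AE17 IPL tumors. Of 6 genes for ligands of NKG2D and DNAM-1, 1 was higher in AB1 IPL tumors (Raet1e, log2 fold change 0.37, adjusted p = 0.0243) and 2 of 5 were higher in AE17 IPL tumors (Raet1d, 0.95, adjusted p = 0.0248, and Nectin2, 0.61, adjusted p = 0.0271). Of 6 tested ligands of Ly49, NKG2A and NKR-P1 receptors, 5 were lower in AB1 IPL tumors, among them H2-T23, which encodes Qa-1 (-0.75, adjusted p = 0.000576), B2m (-0.57, adjusted p = 0.000374), H2-K1 (-0.43, adjusted p = 0.00935) and Clec2i (-1.33, adjusted p = 0.000751), and none of 7 was called in AE17. Of 15 cytokine and chemokine genes that act on NK cells, 10 were lower and 1 higher in AB1 IPL tumors. Il15, which NK cells need to survive, had a log2 fold change of -1.06 (adjusted p = 8.79e-05), Ccl5 -2.02 (adjusted p = 0.000173) and Cxcl9 -1.55 (adjusted p = 0.000232). Cx3cr1, a receptor of NK cells that monocytes and macrophages also carry, was higher (1.15, adjusted p = 2.39e-05). In AE17 1 of 15 was lower, Il12b (-1.07, adjusted p = 0.0467), named here after its values were seen, and Il15 had a log2 fold change of 0.34 (adjusted p = 0.225). The difference between models was -1.39 for Il15 (adjusted p = 0.000173) and -1.12 for H2-T23 (adjusted p = 0.0017).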

How the data were processed

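RNA of 32 whole tumors was sequenced as 50 bp single-end reads. The authors mapped them with HISAT2 (2.0.4 in the submitters' processing notes) and deposited counts of reads per gene, without normalization; the counting of multiple matches and of strand is not given in the sources used here. Of 39676 gene identifiers, 39495 were found in GENCODE M21 (GRCm38) when version numbers were ignored and 36719 with them. The methods name the genome mm11, so the authors' build and annotation are not settled, and coordinates, exon lengths and shared windows given here are those of GENCODE M21. Groups came from sample titles and sequencing lanes from the column headers.

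Counts were tested in R 4.3.3 with edgeR 4.0.16 (filterByExpr, TMM, robust quasi-likelihood F test, two-sided, Benjamini-Hochberg, adjusted p under 0.05): IPL against SC within each model (16 tumors), and the interaction and the model contrasts in 1 fit of 32 tumors. Ratios used exact permutation tests. Alternatives were DESeq2 1.42.0, limma 3.58.1 (voom), other scalings, filters and samples, a replicate block, covariates and leaving out tumors. The fits and tests were tested on simulated data. The 112 within-group pairs of libraries differed more than counting error allows (chi-square divided by its degrees of freedom 5.51 to 135). P values measure the spread between these mice.

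The members and lists were chosen with earlier results of these data known. Named are all 10 members, up to 4 genes per list with the lowest adjusted p past 0.05 in a site comparison, 9 defining genes whatever their values, and the 5 genes most like Ncr1.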

Additional observations from a re-analysis of the deposited data

Results flagged for a closer look

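AE17 IPL replicate 8 stood above the other 7 tumors of its group in 3 receptor genes by Dixon's test. Ncr1 was 5.73 CPM there against 3.6 in the next tumor, Klrb1c 5.34 against 3.43 and Klra7 3.39 against 2.00. The test was run for 10 genes in 4 groups, 40 times in all, and chance flags about 1 in 20. That tumor also had the highest leukocyte sum of its group, 1308 CPM, and its 1.57 Ncr1 reads per 100 Ptprc reads were the highest of the group too, yet below every AE17 SC tumor. Without it the AE17 log2 fold changes were -1.64 for Ncr1, -1.51 for Klrb1c and -1.75 for Klra7.

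The site effect differed between AB1 and AE17 by the interaction test for Klrk1 (log2 difference -1.40), Klrd1 (-2.21), Klrc1 (-2.16), Klre1 (-2.00) and Eomes (-1.52), each more negative in AB1. Klra4 also passed (-2.15), but it was too low to be tested in AB1 alone, where its value sets 11 against 53 summed counts, so it says little about the site effect.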

How the results depend on the processing

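In AB1, 8 receptor genes were called in every fit that left out 1 tumor (8 to 8), 8 with the replicate block, 10 by DESeq2 and without a filter, which add Klra4 and Klra8 at their low counts, and 4 within lane 3. In AE17, 4 genes were called, 4 by DESeq2 and limma voom, 1 with the replicate block (Ncr1, adjusted p = 0.0461), 0 with sequencing lane as a covariate, 0 with tissue marker scores, 0 within lane 1 and 2 to 4 when 1 tumor was left out. The interaction count was 6, 3 with lane and 3 with tissue scores as covariates, 6 with the block, and 6 to 7 without 1 tumor. Each count includes Klra4, which is at or near the detection limit in AB1 IPL tumors and low in AB1 SC tumors. Between models, 9 genes differed in SC tumors, 5 with at least 10 counts in every tumor (where fewer genes are tested), 6 with lane as a covariate and 7 to 10 without 1 tumor; 7 differed in IPL tumors, 3 with that filter, 3 with lane as a covariate and 6 to 9 without 1 tumor. Unless that filter is used, these counts between models include Klra4 and Klra8, which the report leaves out of its own count because their AB1 counts are low. Of all genes, 58.3% were called between models in SC and 63.4% in IPL tumors in the main fit. Tumors with the same number are different mice. The correlation of their deviations from the group means averaged -0.12 in AB1 (0 of 8 pairs over 0.1) and 0.07 in AE17 (5 of 8). For tumors with different numbers it averaged 0.02 in AB1 and -0.007 in AE17. Such correlations cannot exclude that tumors of 1 number were handled together. Of 8 numbers, 0 in AB1 and 3 in AE17 correlated best with their own. The causes of the lost calls were not tested. The shares of all genes called in the alternative fits are not given here, so a loss particular to the receptors cannot be read from these counts.

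Among uncalled values near 0, some changed sign. The log2 fold change of Klrd1 AE17 IPL against SC (0.00) was -0.00135 by DESeq2, -0.0137 by voom, -0.000571 with DESeq2 size factors, -0.00786 with total counts, -0.00738 without a filter, -0.00164 with the filter of 10 counts, -0.00186 with all 32 tumors in the fit, -0.153 without the tumors with the lowest Ptprc and -0.153 to 0.116 without 1 tumor. That of Klre1 AE17 IPL against SC (-0.08) was 0.159 by voom, 0.0346 with the replicate block, 0.174 with lane and 0.0554 with tissue scores as covariates, 0.173 within lane 1 and -0.261 to 0.118 without 1 tumor. No adjusted p of these was under 0.05.

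Without 1 tumor, the log2 ratio of Ncr1 to Ptprc ranged from -1.06 to -0.82 in AB1 and from -1.48 to -1.34 in AE17, and that to Cd3e from -1.11 to -0.73 and from -2.65 to -2.32. Within 1 lane the AB1 ratios were -0.78 (exact permutation p = 0.0667) and -0.72 (exact permutation p = 0.289). Over the 5 comparisons, 461 of 522 other values of single genes kept direction and side of the threshold, 40 lost the threshold, 8 gained it and 13 reversed, and of 1248 values without 1 tumor 1191 kept both. Called values that depended on single tumors, beside those in the report, were Klre1 between models in SC tumors, lost without any of AB1 SC replicates 2, 5, 6, 7 and 8 and AE17 SC replicates 2, 4, 5, 6, 7 and 8 (adjusted p up to 0.0918). Newly called between models were Klrb1c in SC tumors without AE17 SC replicate 3, and in IPL tumors Klrb1c without AB1 IPL replicate 3 and Klrc1 without any of AB1 IPL replicates 3 and 5, AE17 IPL replicate 3 and AE17 SC replicates 1, 3, 6 and 8. Klra4 and Klra8 in AB1 tumors are limited by low counts, 0 to 4 and 1 to 8 in IPL tumors and 2 to 17 and 5 to 15 in SC tumors.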
